A study of Rattus norvegicus and Mus musculus with 22 samples.

Results

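The 10 genes S100a8, S100a9, Csf3r, Fpr1, Lcn2, Ltf, Ngp, Camp, Mpo and Elane were taken by symbol as markers of neutrophils. All 10 were found among the 22081 gene symbols of each of the 3 rat count tables. Neutrophils are short-lived phagocytes that leave the blood for inflamed tissue, guided by chemoattractant receptors such as Fpr1 and sustained by granulocyte colony-stimulating factor through its receptor Csf3r. They hold antimicrobial proteins in granules, and the transcripts of the azurophil granule proteins (Mpo, Elane) belong mainly to precursors in the bone marrow, those of the specific granules (Lcn2, Ltf, Ngp, Camp) to later precursors. Mature cells are rich in S100a8 and S100a9, the subunits of calprotectin, which monocytes make as well, and Lcn2 is also a product of airway epithelium.

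The rats had Sugen-hypoxia (SuHx) pulmonary hypertension, induced with an inhibitor of the VEGF receptor and low oxygen, and every rat library came from SuHx rats, so no untreated control was compared. Wild-type (WT) rats were compared with IL6KO rats, which lack interleukin 6, a cytokine that acts through gp130 and Stat3 and induces Socs3. RNA of whole lung was counted at day 7 and day 56, with 3 libraries per genotype and day, and RNA of CD4-positive cells isolated from day 7 lung by magnetic sorting, with 2 libraries per genotype. Neutrophils are one candidate carrier of Socs3 in such samples, so whole lung and isolates were compared for neutrophil genes by genotype. The labels give neither age nor sex, and do not say whether libraries of a group came from separate animals, so p-values measure only the spread between these libraries. The labels also do not say which part of Il6 is deleted, and its counts of 2 to 8 in day 7 IL6KO lung against 5 to 11 in WT lung therefore check no label.

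Levels are counts per 1000000 counts of a library (CPM), and totals ran from 11477533 to 23590070 counts. In bulk RNA, fewer cells of a type and less RNA per cell cannot be told apart. The isolates held T cell genes at a summed 4280 to 5260 CPM against 110 to 177 CPM in day 7 lung, as their label asks. They also held macrophage and monocyte genes at a summed 9450 to 14800 CPM, below the 16800 to 21900 CPM of day 7 lung. Most of that sum was Lyz2, at means of 6520 and 8060 CPM in WT and IL6KO isolates and 16200 and 18300 CPM in lung. Gene by gene, 14 of 21 tested were higher in isolates and 3 lower in WT, and 15 higher and 2 lower in IL6KO. Those contrasts called 37.7% and 36.4% of all genes higher. Rat macrophages and monocytes are known to carry CD4. Library 3 of day 56 WT lung stood apart from its group: without it, 1268 genes were called between the genotypes at day 56, against 2 with it.

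The upstream regions of 3 members are shown because the results turn on them: S100a9 and Csf3r, which were higher in the isolates than in lung, and Lcn2, which was lower. RefSeq (GRCr8) gives such a region for 8 of the 10 members. Each is the 250 bases before the annotated start, 5′ to 3′, at chr2:178490623-178490872 on the minus strand for S100a9, chr5:143582970-143583219 on the plus strand for Csf3r and chr3:36081781-36082030 on the minus strand for Lcn2. Capitals mark matches, on either strand, to TTNNGNAA (the C/EBP type, for factors that drive granulocyte genes) and to GAGGAA (the PU.1 type).
S100a9: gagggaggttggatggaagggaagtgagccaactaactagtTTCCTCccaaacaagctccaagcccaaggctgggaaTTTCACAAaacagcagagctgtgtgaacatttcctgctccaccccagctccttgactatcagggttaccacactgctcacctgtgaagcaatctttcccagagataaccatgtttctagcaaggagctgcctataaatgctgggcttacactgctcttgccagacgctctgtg
Csf3r: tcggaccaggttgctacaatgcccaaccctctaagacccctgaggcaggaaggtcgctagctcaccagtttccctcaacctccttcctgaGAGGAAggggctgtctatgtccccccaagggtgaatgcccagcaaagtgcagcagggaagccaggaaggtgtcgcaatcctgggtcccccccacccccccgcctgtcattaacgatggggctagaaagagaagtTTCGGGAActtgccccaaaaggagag
Lcn2: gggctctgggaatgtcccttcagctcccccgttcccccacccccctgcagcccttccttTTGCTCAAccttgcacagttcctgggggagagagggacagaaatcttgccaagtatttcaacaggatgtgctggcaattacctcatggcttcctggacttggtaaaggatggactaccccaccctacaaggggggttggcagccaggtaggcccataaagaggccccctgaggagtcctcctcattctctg
The C/EBP type was matched in 6 of the 8 member regions and in 37.2% of the 33469 regions of this length in the RefSeq table. GAGGAA was matched in 4 of the 8, S100a9, Csf3r, Fpr1 and Mpo, and in 23.3% of all. TTCNNNGAA, the letters of a STAT site, was matched in 0 of the 8 and in 7.67% of all. No match of one motif overlapped a match of another in the 3 regions shown. These matches are descriptions of letters, and no binding was measured.

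The members fell into 3 kinds by where they were counted. S100a8, S100a9 and Csf3r had at least 94 counts in each of the 16 rat libraries and were higher in every isolate than in every lung. Lcn2 was the reverse, with its lowest lung library at 175 CPM and its highest isolate at 29.9 CPM. The granule genes Ltf and Elane were all but uncounted, at 0 in 12 and 10 of the 16 libraries and never above 3 counts. Mpo ran from 1 to 14 counts, Fpr1 from 0 to 26, Ngp from 1 to 48 and Camp from 10 to 53, so these rest on few reads. Where a library has 0 counts of a gene, the limit is taken as 3 counts, at most 0.261 CPM here, and covers counting error only.

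**Figure D1:**
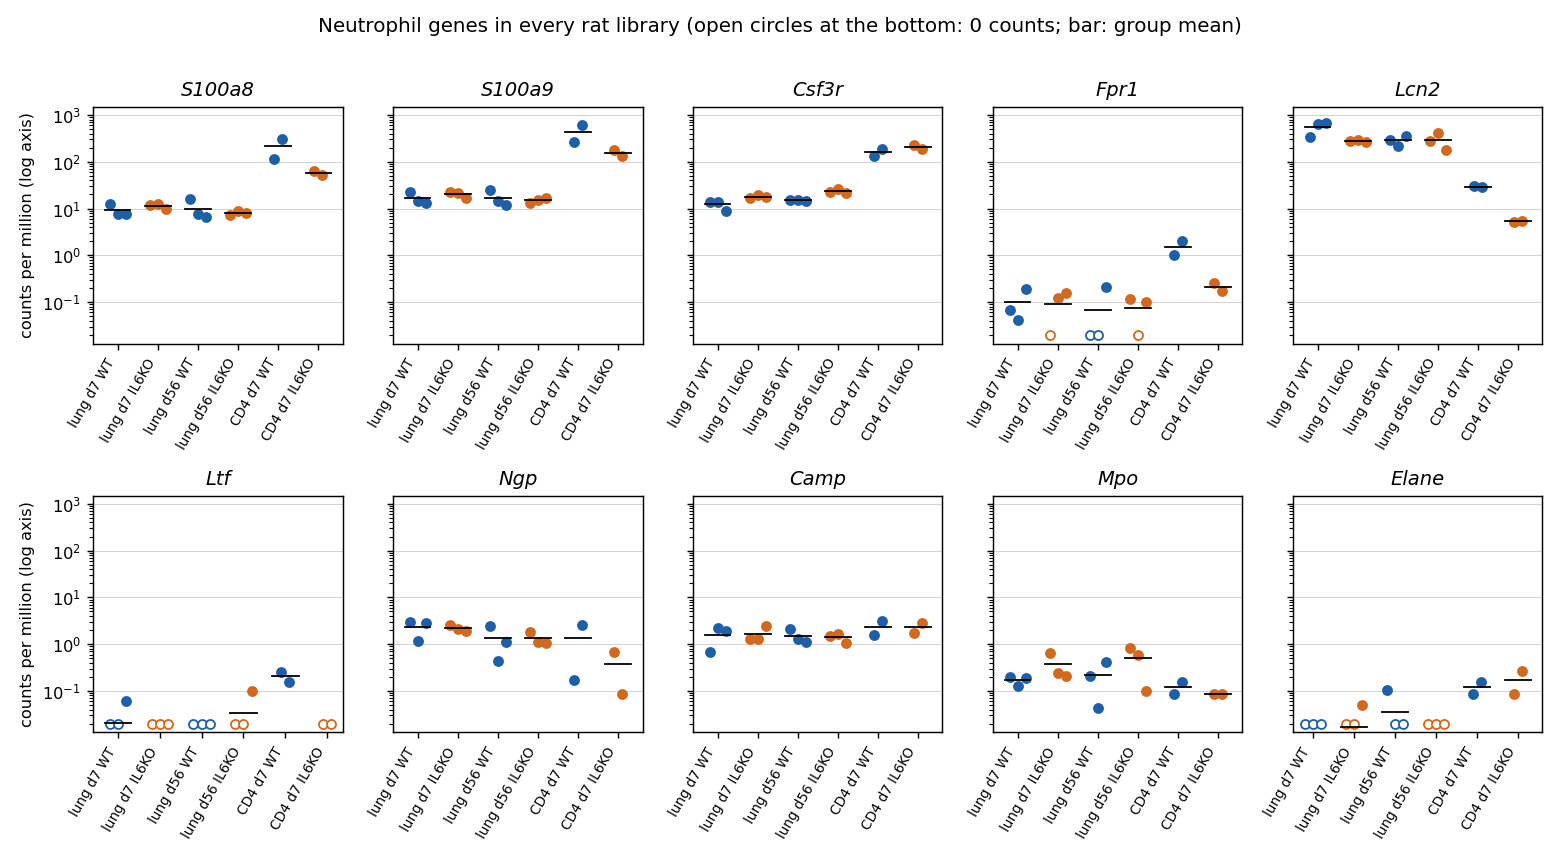
CPM (log axis) of the 10 neutrophil genes in the 16 rat libraries, by group (WT blue, IL6KO orange), with the group mean as a bar and libraries at 0 counts as open circles at the bottom. S100a8, S100a9 and Csf3r are higher in the 4 CD4 isolates than in the 12 lung libraries, Lcn2 is lower, and Ltf and Elane are mostly at 0.

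In WT rats at day 7, S100a8, S100a9 and Csf3r were higher in isolates than in whole lung and Lcn2 was lower, while Ngp and Camp were not called. Fpr1 was called higher as well, but it passed the filter on low counts through the WT isolates alone, the group where it is high, so its call is a description. These are the 7 members of 10 that were tested. Isolate against lung also called 81.4% of all genes tested, 37.7% higher and 43.6% lower, so calls as such were the rule in this contrast. Isolate and count table go together, and the 2 cannot be told apart.

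The alarmin genes had the widest gap. S100a9 was counted at 22.1, 14.7 and 13.1 CPM in WT lung and at 261 and 602 CPM in WT isolates. The log2 fold change was 5.01 ± 0.385 (SE, adjusted p = 5.25e-06, edgeR). S100a8 stood at 12.5, 7.55 and 7.53 CPM in lung and at 113 and 313 CPM in isolates (4.86 ± 0.438, adjusted p = 2.06e-05, edgeR). The groups did not overlap for either gene, yet the second WT isolate held over 2 times the level of the first.

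Of the receptor genes, Csf3r was higher in WT isolates. It was at 14.1, 14 and 8.96 CPM in WT lung and at 135 and 189 CPM in isolates, with no overlap (4.01 ± 0.186, adjusted p = 3.22e-09, edgeR). Fpr1, a receptor for formylated bacterial peptides, had 1, 1 and 3 counts in lung and 12 and 26 in isolates, through which alone it was tested. Pooled and scaled by library totals, isolates had 16.9 times the Fpr1 of lung, with an exact 95% interval of 6.64 to 55 that covers counting error only, and the fitted difference was 4.23 ± 0.671 (adjusted p = 8.18e-05, edgeR).

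Lcn2, the iron-siderophore binding lipocalin of specific granules, went the other way in WT. It stood at 346, 638 and 682 CPM in lung and at 29.9 and 29.3 CPM in isolates (-3.92 ± 0.288, adjusted p = 7.61e-07, edgeR). Genes of an airway epithelial list were also lower in the isolates, 14 of 15 tested in WT, where 43.6% of all genes were called lower. They summed to 2160 to 2840 CPM against 22600 to 24900 CPM in WT lung. Most of both sums came from Sftpc and Sftpb, surfactant genes of alveolar type 2 cells. Sftpc was at means of 11800 CPM in WT lung and 1320 CPM in WT isolates, and Sftpb at 4050 and 388 CPM. The part of these epithelial genes in the Lcn2 difference was not tested. Lcn2 made 1.05 and 1.36 counts per 100 counts of the airway list in WT isolates and 1.47, 2.82 and 2.74 in WT lung.

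Of the remaining granule genes, Ngp and Camp were not called in WT. Ngp, a cathelicidin-related granule protein, was at 2.93, 1.19 and 2.86 CPM in lung and at 0.171 and 2.55 CPM in isolates, groups that overlap (-0.41 ± 0.743, adjusted p = 0.621, edgeR). Camp, the cathelicidin precursor, was at 0.666, 2.25 and 1.87 CPM in lung and at 1.54 and 3.09 CPM in isolates (0.82 ± 0.489, adjusted p = 0.141, edgeR). Ltf (lactoferrin) had 3 and 2 counts in the WT isolates and 1 count in all WT lung, Mpo (myeloperoxidase) 1 and 2 against 3 in each lung, and Elane (neutrophil elastase) 1 and 2 against 0. By CPM, Ltf and Elane stood above each WT lung in both WT isolates, on few reads. The limit at 0 counts reached 0.2 CPM in WT lung. Elane was at 0.0857 and 0.155 CPM in the isolates and the lower Ltf isolate at 0.155 CPM. By that limit neither gene is shown to be higher in both isolates. The pooled Ltf ratio of 11.1 had an exact interval of 1.24 to 526, for counting error only. Ltf, Mpo and Elane did not pass the filter on low counts in this fit.

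In IL6KO rats the isolates again held more alarmin and Csf3r transcript than lung, by smaller steps for the alarmins. Of 7 members tested, 3 were higher (S100a8, S100a9 and Csf3r) and 2 were lower (Lcn2 and Ngp), in a contrast that called 79.5% of all genes, 36.4% higher and 43.2% lower. S100a9 stood at 22.2, 21 and 17.1 CPM in IL6KO lung and at 179 and 131 CPM in isolates (3.14 ± 0.365, adjusted p = 7.69e-05, edgeR). S100a8 was at 11.9, 12.4 and 9.92 CPM in lung and 62.1 and 53.1 CPM in isolates (2.54 ± 0.425, adjusted p = 0.000852, edgeR). Neither gene overlapped between lung and isolates.

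Csf3r in IL6KO rats was at 17.2, 19.1 and 17.9 CPM in lung and at 230 and 191 CPM in isolates (3.74 ± 0.181, adjusted p = 4.86e-09, edgeR). Lcn2 was at 283, 293 and 269 CPM in lung and at 5.13 and 5.49 CPM in isolates (-5.53 ± 0.336, adjusted p = 1.84e-07, edgeR). On the log2 scale both gaps were wider than the spread within any of the 4 day 7 groups. Ngp fell by 2.33 ± 0.948 (adjusted p = 0.0433, edgeR) from 48, 35 and 38 counts to 8 and 1, a call lost under 7 of 11 alternatives (adjusted p from 0.0104 to 0.239 over all 11). Fpr1, with 0, 2 and 3 counts in lung and 3 and 2 in isolates, was at 1.33 ± 0.979 (adjusted p = 0.228, edgeR), and its pooled ratio of 2.32 had an exact interval of 0.533 to 10.1.

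**Figure D2:**
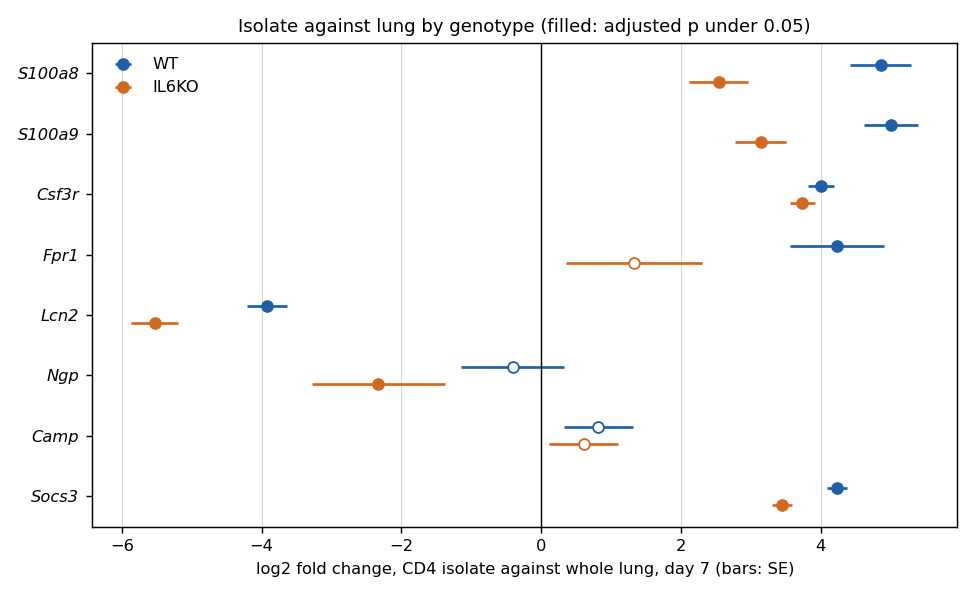
Log2 fold change with its SE of CD4 isolates against whole lung at day 7, in WT (blue) and IL6KO (orange), for the 7 members tested and Socs3; filled points have an adjusted p under 0.05. S100a8, S100a9, Csf3r and Socs3 are to the right in both genotypes and Lcn2 to the left in both.

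The calls in both contrasts kept their direction and side of the threshold when counts were scaled by RLE size factors or by library totals alone. The median over all genes moved from -0.12 to -0.43 in WT and to -0.32 in IL6KO with library totals, so that scaling puts isolates lower by about that much.

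Within the isolates, Lcn2 fell by 2.51 on the log2 scale in IL6KO against WT. Fpr1 was called lower too, of 6 members tested, where 6.4% of all genes tested were called, 3.5% higher and 2.91% lower. Ltf, Mpo, Elane and Ngp were not tested in this fit, and Fpr1 had 3 and 2 counts in IL6KO and 12 and 26 in WT, so that it passed the filter through WT alone and its call is a description.

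Lcn2 was at 29.9 and 29.3 CPM in WT isolates and at 5.13 and 5.49 CPM in IL6KO isolates (-2.51 ± 0.142, adjusted p = 0.000379, edgeR). The 2 libraries of each genotype lay within 1 CPM of each other, and the call held under all 12 alternatives, 4 of them leaving 1 library in a group. Genes of the airway list, surfactant genes included, moved in the same direction: 6 of 15 tested were called lower and 0 higher. Of all genes, 2.91% were called lower and 3.5% higher. Elf3 was at -2.51, Epcam at -2.04, Sftpb at -1.89 and Krt8 at -1.89. The list summed to 2840 and 2160 CPM in WT isolates and to 811 and 681 CPM in IL6KO isolates. Lcn2 per 100 airway counts was 1.05 and 1.36 in WT and 0.632 and 0.806 in IL6KO isolates, and the part of epithelial RNA in the Lcn2 difference was not tested.

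Fpr1 was at 1.03 and 2.01 CPM in WT and at 0.252 and 0.174 CPM in IL6KO isolates (-2.81 ± 0.618, adjusted p = 0.0415, edgeR). The pooled IL6KO to WT ratio was 0.138, with an exact interval of 0.0425 to 0.352 for counting error. This call was lost with DESeq2 (adjusted p = 0.105), with limma-voom (adjusted p = 0.0556) and on leaving out any 1 of the 4 isolates (adjusted p from 0.0748 to 0.245).

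S100a8 and S100a9 were lower in both IL6KO isolates than in either WT isolate, and neither difference passed the test. S100a8 was at 113 and 313 CPM in WT against 62.1 and 53.1 CPM in IL6KO (-1.91 ± 0.665, adjusted p = 0.271, edgeR). S100a9 was at 261 and 602 CPM against 179 and 131 CPM (-1.5 ± 0.557, adjusted p = 0.286, edgeR). The spread lies in WT, where the second isolate was the higher. S100a8 was at -2.46 without the first WT isolate and at -1.01 without the second, in fits that leave 1 WT isolate and hold no WT spread. Among fits that keep 2 isolates per genotype, S100a8 passed only in the fit over all 10 day 7 libraries (-1.99, adjusted p = 0.0345, edgeR). Of the 14772 genes tested in that fit, 470 were called higher and 1025 lower. S100a9 passed in that 10-library fit (-1.58, adjusted p = 0.0441) and in no other alternative.

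Csf3r and Camp did not follow the alarmins in the isolates. Csf3r was at 135 and 189 CPM in WT and at 230 and 191 CPM in IL6KO, higher in IL6KO without overlap but not called (0.35 ± 0.178, adjusted p = 0.318, edgeR). The ratio of S100a9 to Csf3r counts was 1.94 and 3.18 in WT isolates, 0.778 and 0.688 in IL6KO isolates, and from 0.954 to 1.57 in the 6 day 7 lung libraries. S100a9 per S100a8 moved less, from 1.92 to 2.88 in the isolates and from 1.56 to 2.1 in lung. Camp was at 1.54 and 3.09 CPM in WT and at 1.76 and 2.79 CPM in IL6KO isolates (-0.06 ± 0.433, adjusted p = 0.951, edgeR).

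Other neutrophil genes in the isolates were called in both directions. Of 29 tested, 4 were lower in IL6KO and 4 were higher, where 2.91% of all genes were called lower and 3.5% higher. Hp (haptoglobin, -1.75), Retnlg (a resistin-like protein of granulocytes, -3.67), Cd177 (a neutrophil surface protein, -2.71) and Padi4 (a histone deiminase, -1.61) were lower. Retnlg had 4 and 7 counts in IL6KO against 46 and 104 in WT isolates, and Cd177 7 and 14 against 59 and 82, so both passed the filter through WT. Trem3 (0.91), Cebpe (a transcription factor of granule formation, 1.21), Fpr2 (0.96) and Ncf4 (a subunit of the NADPH oxidase, 0.37) were higher, and Padi4, Cebpe, Fpr2 and Ncf4 were named after their values were seen. The collagenase Mmp8, at a mean of 52.7 ± 39.9 CPM in WT and 8.99 ± 2.86 CPM in IL6KO isolates (SD, n = 2), was not called, and was named after its values were seen too (-2.57, adjusted p = 0.263, edgeR). Calls without 1 WT isolate rest on the 1 left, and their number moved with which was left out. The 10-library fit called 4 higher and 9 lower. Of the 14772 genes tested in that fit, 470 were called higher and 1025 lower, or 770 and 615 when scaled by library totals.

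**Figure D3:**
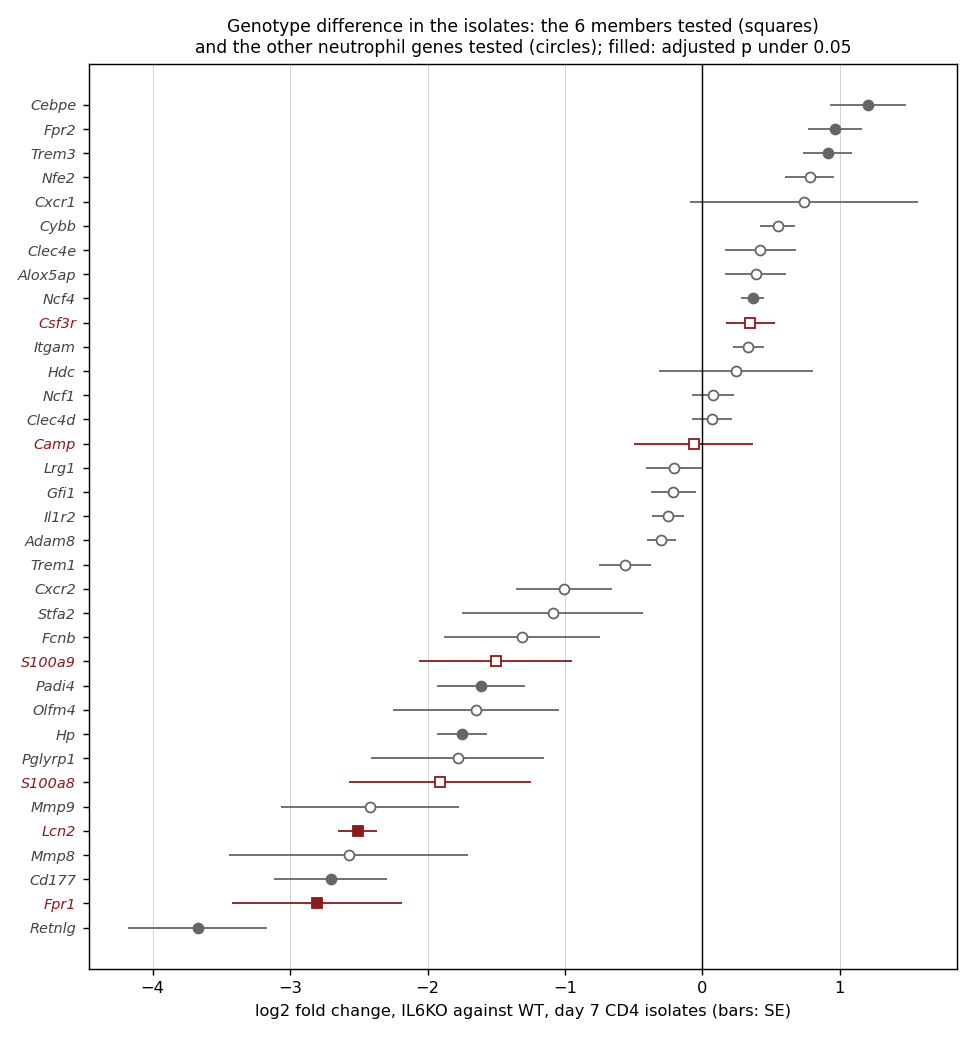
Log2 fold change with its SE of IL6KO against WT in the day 7 CD4 isolates, for the 6 members tested (red squares) and the 29 other neutrophil genes tested (grey circles); filled marks have an adjusted p under 0.05. Lcn2 and Fpr1 are filled on the left, S100a8 and S100a9 are open on the left, and Csf3r is open on the right.

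Markers of other cells also differed between the genotypes in the isolates, where 3.5% of all genes were called higher and 2.91% lower. Of 21 macrophage and monocyte genes tested, 7 were higher in IL6KO and 0 lower, with Csf1r at 0.77 and Pparg at 1.33, and their sum was 9560 and 9450 CPM in WT against 10700 and 14800 CPM in IL6KO. Of 18 T cell genes, 6 were lower, with Tcf7 at -0.45 and Cd3e at -0.41. Erythroid genes summed to 1280 and 1830 CPM in WT and to 7800 and 3820 CPM in IL6KO isolates. Of 7 tested, 1 was called higher (Ahsp, a chaperone of hemoglobin, 3.74) and 1 lower (Tfrc, -0.76), with a median of 2.05. Ahsp had 4 to 7 counts in WT and 47 to 100 in IL6KO isolates. It passed the filter on low counts through IL6KO alone, so its call is a description. Klf1, with 3 to 4 counts in WT and 10 to 19 in IL6KO isolates, entered the median in the same way. B cell genes summed to 112 and 110 CPM in WT and 154 and 146 CPM in IL6KO, with 1 of 8 called higher (Blk, 2.02) and a median of 1.09. S100a8, Csf3r and Fpr1 are also made by monocytes, and what part such cells had in the differences of these members was not tested. The azurophil granule gene Ctsg and Ms4a3, a marker of granulocyte and monocyte progenitors, were at 0 in all 4 isolates, Prtn3 had 1 count in 1 of them, and Mpo had 1 or 2 counts in each.

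Whether the gap between isolate and lung depended on genotype was tested in the 10 day 7 libraries. Of 7 members, 1 was called, Lcn2, lower by 1.61 ± 0.402 on the log2 scale (adjusted p = 0.0478, edgeR), where 6.42% of all genes were called, 1.88% higher and 4.55% lower. The call was lost under 12 of 17 alternatives, with an adjusted p from 0.000108 to 0.225 over the 17. Genes of the airway list, surfactant genes included, had the same direction in this term, 10 of 15 called lower and 0 higher. Their median was -1.98, with Elf3 at -2.02, and their part in the Lcn2 value was not tested. S100a8 was at -2.32 ± 0.61 (adjusted p = 0.0758, edgeR) and S100a9 at -1.86 ± 0.517 (adjusted p = 0.0836, edgeR). DESeq2 called both, at an adjusted p of 0.0057 and 0.0136. Without the first WT isolate S100a8 was at -2.87 and S100a9 at -2.33, and without the second at -1.43 and -1.17. Those fits leave 1 WT isolate and hold no spread of that group. Csf3r was at -0.28 ± 0.254 (adjusted p = 0.574, edgeR), Fpr1 at -2.9 ± 1.28, Ngp at -1.92 ± 1.23 and Camp at -0.2 ± 0.696, none called. The median over all genes was -0.11, and the calls split into 277 higher and 672 lower, or 404 and 440 when scaled by library totals.

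In whole lung at day 7, none of the 6 members tested was called between the genotypes, where 2.09% of all genes were, 0.933% higher and 1.16% lower. DESeq2 called 1 of them, Lcn2. At an unadjusted p under 0.05, edgeR gave 2 of the 6, Lcn2 and Csf3r. Lcn2 was at 346, 638 and 682 CPM in WT and at 283, 293 and 269 CPM in IL6KO, lower in IL6KO without overlap (-0.98 ± 0.248, adjusted p = 0.134, edgeR). The difference passed with DESeq2 (adjusted p = 0.0157) and without WT library 1, the lowest of the WT group (adjusted p = 0.00129).

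Csf3r went the opposite way in day 7 lung. It was at 14.1, 14 and 8.96 CPM in WT and at 17.2, 19.1 and 17.9 CPM in IL6KO, higher in IL6KO without overlap (0.54 ± 0.162, adjusted p = 0.15, edgeR). S100a8 (0.32 ± 0.199, adjusted p = 0.54) and S100a9 (0.28 ± 0.188, adjusted p = 0.587) overlapped between the genotypes, as the values given above for each library show. Ngp, at -0.02 ± 0.34, and Camp, at 0.05 ± 0.425, were close to 0 with errors that leave room for changes in either direction. Mpo had 3 counts in each WT library and 12, 4 and 4 in IL6KO, and Elane and Ltf 1 count each over the 6 libraries. Among 28 other neutrophil genes tested, Trem1, an amplifier of phagocyte activation, was lower (-0.65 ± 0.12, adjusted p = 0.0321, edgeR) and 0 were higher.

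At day 56, again none of the 6 members tested was called between the genotypes in lung, where 0.0138% of all genes were called. DESeq2 called 1 of the 6, Csf3r, which was the member below an unadjusted p of 0.05. Csf3r was at 15.3, 15 and 14.4 CPM in WT and at 22.9, 26 and 22 CPM in IL6KO, higher without overlap as at day 7 (0.65 ± 0.106, unadjusted p = 0.000414, adjusted p = 0.267, edgeR). It passed with DESeq2 (adjusted p = 0.000598) and without WT library 3 (adjusted p = 0.0241). The alarmins overlapped, with S100a9 at 24.7, 14.3 and 11.9 CPM in WT and 12.9, 15.4 and 16.5 CPM in IL6KO (-0.2 ± 0.264) and S100a8 at 15.9, 7.62 and 6.52 CPM in WT and 7.19, 8.82 and 7.87 CPM in IL6KO (-0.35 ± 0.329). Lcn2 was at 294, 213 and 351 CPM in WT and 276, 405 and 175 CPM in IL6KO, with no difference in the means beyond that spread (-0.02 ± 0.305). Camp (-0.11 ± 0.34) and Ngp (-0.01 ± 0.6) were not called, and 0 of 28 other neutrophil genes were.

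Between day 7 and day 56, which were deposited as separate tables so that day and table cannot be told apart, 0 of 7 members tested were called in WT lung and 0 of 7 in IL6KO lung. Of all genes 14.8% were called in WT, 6.72% higher and 8.05% lower, and 8.32% in IL6KO, 3.4% higher and 4.92% lower. Lcn2 came closest in WT, falling from a mean of 555 ± 182 to 286 ± 69.3 CPM (SD, n = 3; -0.99 ± 0.31, adjusted p = 0.0563, edgeR), with 1 day 7 library inside the day 56 range. DESeq2 called 1 of the 7 in WT, Lcn2 (adjusted p = 0.00461). Lcn2 also passed without day 7 WT library 1 (adjusted p = 0.0182) or day 56 WT library 3 (adjusted p = 0.0488). In IL6KO, S100a8, S100a9 and Ngp were lower at day 56 and Csf3r higher, each without overlap, at -0.56 ± 0.298, -0.47 ± 0.254, -0.78 ± 0.519 and 0.35 ± 0.141, none called. The genotype by day term called 0 of 7 members and 0% of the 13865 genes tested with edgeR, 1043 of them at an unadjusted p under 0.05, and DESeq2 called 47. Its largest member value was Lcn2 at 0.96 ± 0.436 (adjusted p = 0.66, edgeR). Mpo entered this 12-library fit alone, at 0.14 ± 1.24.

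Socs3, the feedback inhibitor of gp130 and Stat3 signaling, was set beside the members in each library. It was at 326 and 265 CPM in WT isolates and at 95.2 and 118 CPM in IL6KO isolates (-1.5 ± 0.158, adjusted p = 0.00897, edgeR). The 2 WT isolates stood in opposite order for Socs3 and for S100a9, 326 and 265 CPM against 261 and 602 CPM, and so did the 2 IL6KO isolates. Socs3 per S100a9 count was 1.25 and 0.441 in WT and 0.533 and 0.901 in IL6KO isolates, groups that overlap. Socs3 per Csf3r count was 2.42 and 1.4 in WT and 0.415 and 0.62 in IL6KO isolates, which do not overlap.

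In lung Socs3 did not keep step with the alarmins. At day 7 it was at 17.7, 20.9 and 19.5 CPM in WT and 12.1, 9.54 and 11.7 CPM in IL6KO (-0.8 ± 0.126, adjusted p = 0.0178, edgeR), while S100a8 and S100a9 overlapped. That call was lost without WT library 2 (adjusted p = 0.0723) or IL6KO library 2 (adjusted p = 0.0563). At day 56 it was at 18.8, 14.3 and 15.4 CPM in WT and 25.2, 25.3 and 20.2 CPM in IL6KO (0.53 ± 0.151, adjusted p = 0.401, edgeR). From isolate to lung, Socs3 was higher in isolates by 4.24 ± 0.143 in WT and 3.45 ± 0.145 in IL6KO (adjusted p = 6.84e-11 and 4.09e-10, edgeR), beside 5.01 and 3.14 for S100a9. Macrophage and T cell genes also differed between isolate and lung, 14 of 21 and 17 of 18 higher in WT isolates. That contrast called 37.7% of all genes higher and 43.6% lower. The share of any cell type in Socs3 was not tested.

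**Figure D4:**
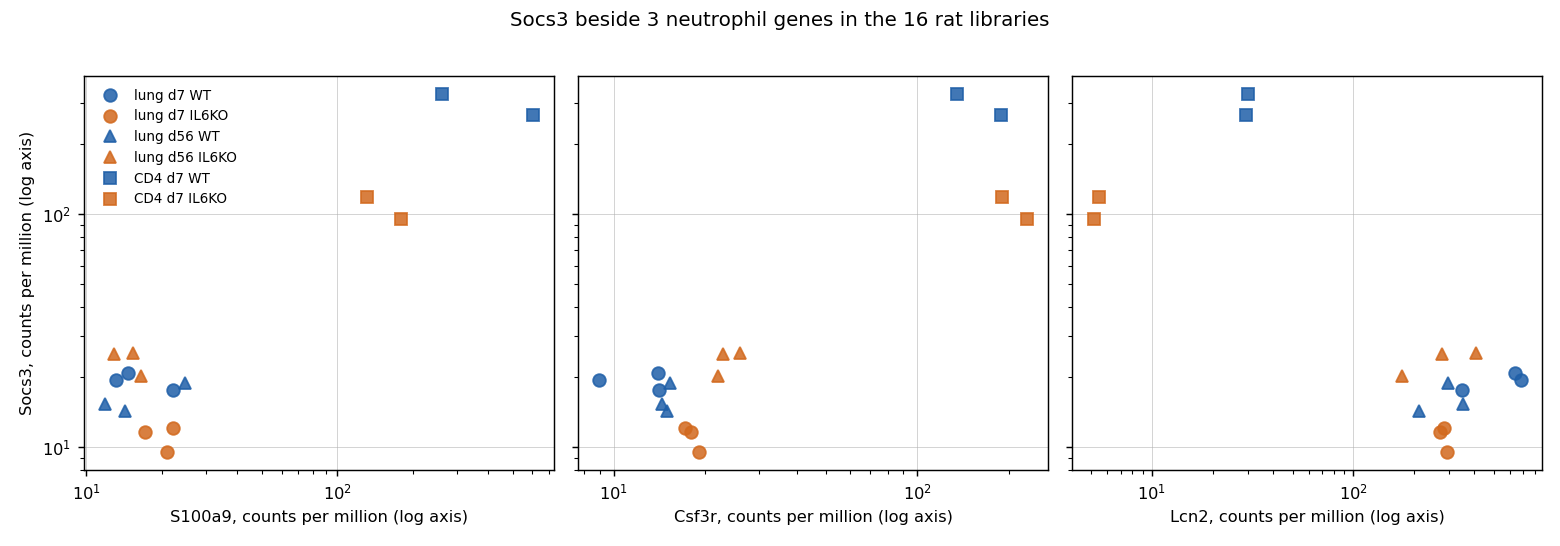
Socs3 against S100a9, Csf3r and Lcn2 in the 16 rat libraries, in CPM on log axes (circles day 7 lung, triangles day 56 lung, squares CD4 isolates; WT blue, IL6KO orange). In the isolates Socs3 is higher in WT than in IL6KO while Csf3r is not, and the 12 lung libraries hold Socs3 at 9.54 to 25.3 CPM.

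The members did not vary as 1 group across lung libraries. Over the 12 lung libraries, with each day's mean subtracted, S100a8 and S100a9 correlated at r = 0.97. Against the mean of the other members S100a8 was at 0.6, S100a9 at 0.46, Ngp at 0.41, Camp at 0.02, Csf3r at -0.03 and Lcn2 at -0.3. By day the granule genes differed: Camp was at -0.83 in the 6 day 7 libraries and at 0.88 in the 6 of day 56, Lcn2 at -0.97 and 0.23, and Ngp at -0.24 and 0.7. Socs3 correlated with Lcn2 at 0.65 and with S100a8, S100a9 and Csf3r at -0.28, -0.28 and -0.08. These r are descriptions, in which differences of genotype and of library depth take part. Camp and Ngp had at most 53 and 48 counts in any rat library, so counting error takes part in theirs as well. The genes most like the mean of the 6 members counted at 1 CPM or more, among 12861, were Klhl38 (0.87), Tctn1, Pdxp and Mrps35 (0.85 each), Mlkl (0.84), and Glp1r, Spry4 and Btg2 (0.83 each). Of these 8, 0 were among the 8 most alike in the day 7 libraries alone and 1 in the day 56 libraries alone.

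Other genes of neutrophil biology were also compared between isolates and lung. Of 30 tested, 23 were higher and 4 lower in WT isolates, where 37.7% of all genes were called higher and 43.6% lower. In IL6KO isolates 19 were higher and 5 lower, against 36.4% and 43.2% of all genes, and the medians were 2.48 in WT and 1.84 in IL6KO. In WT, Clec4d, a C-type lectin of myeloid cells, was at 6.08, Gfi1 at 4.41, Trem1 at 3.47 and Ncf4 at 2.29. In the tdTomato-positive and tdTomato-negative splenic CD4 fractions of SM22alpha-Cre reporter mice, Gfi1 was at means of 21.3 and 21.2 CPM. Ncf4 was there at 58.3 and 59.3 CPM, while Clec4d was at 0 and Trem1 at most at 1.17 CPM. The rat isolates held Gfi1 at 12.8 CPM in WT and 11.3 CPM in IL6KO, and Ncf4 at 119 and 157 CPM. What part T cells or macrophages had in these values was not tested. Of the 30, 3 had an isolate-to-lung difference that depended on genotype, all more negative in IL6KO: Cd177 (-2.69), Mmp9 (a gelatinase of tertiary granules, -2.53) and Gfi1 (-1.17), where 6.42% of all genes were called. Their number was 1 with limma-voom, 5 with library totals alone, 6 with the replicate block, 8 with DESeq2 and 8 at a mean of at least 5 CPM. It was 1 without WT lung 2, IL6KO lung 2 or IL6KO isolate 2, and 5 without WT isolate 1. Cd177 in fact stood higher in lung, at 23.5 to 27.8 CPM in WT, than in isolates, at 4.56 and 7.03 CPM in WT and 0.61 and 1.18 CPM in IL6KO.

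Genes with a part in neutrophil recruitment, among them receptors and adhesion genes that other leukocytes carry too, were also compared. The list summed to 7800 to 9990 CPM in the rat isolates. In the mouse splenic CD4 fractions, where the members were near absent, it summed to 3250 to 3580 CPM. What part other leukocytes had in the calls below was not tested. In WT isolates 20 of 33 tested were higher than in lung and 9 lower, beside 37.7% and 43.6% of all genes, with Il1b at 7.16 and Cxcr4 at 5.17. Between genotypes in the isolates, 6 of 30 were higher in IL6KO and 0 lower, beside 3.5% and 2.91% of all genes, among them Tlr4 (1.56), Il17ra (0.86), Il6r (0.54) and Itgb2 (0.4), the last the beta chain of the integrins by which leukocytes adhere. Csf3, the ligand of Csf3r, had 12 or 13 counts in each WT isolate, 4 and 7 in the IL6KO isolates, 2 to 5 in day 7 IL6KO lung and 0 in every day 7 WT lung.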

How the data were processed

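The authors deposited raw counts per gene, 1 column per library, per the file headers. The aligner, counter and strand setting were not given in the sources used here. The submitters' processing notes name GRCm38, a mouse build, for the rat libraries too, although the rat tables hold 1699 to 2143 symbols of the rat-type RGD or LOC. Per the labels' protocols Trizol and column purification gave the RNA, and day 7 lung CD4 cells were isolated by MACS. The day 7 lung and CD4 tables share 22071 symbols and those of day 7 and day 56 lung share 20230. Columns were matched to samples by title, with 0 left over.

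After filterByExpr and TMM scaling, edgeR 4.0.16 (robust quasi-likelihood fit, R 4.3.3) tested all genes left, with p-values adjusted by Benjamini-Hochberg over them and calls at an adjusted p under 0.05. Every adjusted p with no tool named is edgeR's. Genotypes were compared within each table, isolate with lung and its dependence on genotype in 1 fit of 10 libraries, and days in 1 fit of 12. Log2 fold changes above 0 mean IL6KO, isolates or day 56 had more. CPM use the library total. Likeness used log2(CPM + 1) of genes with at least 1 CPM on each day. Ratio intervals are exact (Clopper-Pearson). The fits were tested on simulated counts.

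Alternatives were DESeq2 1.42.0, limma-voom (limma 3.58.1), RLE size factors, library totals alone, no filter, a mean of at least 5 CPM, the replicate number as a block, leaving out each library, and the 10-library fit for the genotypes in isolates and in day 7 lung. Counts of other neutrophil genes under them were added after the data were seen. The members and lists were chosen with earlier results of these data known. All members and Socs3 were named in every comparison, up to 4 genes of each other list by smallest p, and the 8 genes most like the members. Isolates had 11477533 to 12930732 counts, day 7 lung 15011692 to 23590070 and day 56 lung 14415060 to 22961232. Figures were drawn with matplotlib 3.10.9. The mouse spleen libraries entered no test.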

Additional observations from a re-analysis of the deposited data

Results flagged for a closer look

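At day 7, 6.42% of all genes were called for a genotype difference that was not the same in isolates and lung. Of those differences, 5 concern the members, Socs3 or the other neutrophil genes. Each is the genotype difference in isolates less that in lung, tested in 1 edgeR fit: Cd177 at -2.69 (adjusted p = 0.00142), Mmp9 at -2.53 (adjusted p = 0.0309), Gfi1 at -1.17 (adjusted p = 0.0379), Socs3 at -0.79 (adjusted p = 0.0385) and Lcn2 at -1.61 (adjusted p = 0.0478). The Socs3 and Lcn2 differences were each lost under 12 of 17 alternatives. Airway epithelium also makes Lcn2. Genes of the airway list, surfactant genes included, were called lower in the same term in 10 of 15, beside 4.55% of all genes. Their part in the Lcn2 value was not tested.

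The mouse splenic CD4 fractions, sorted by FACS and used in no test, held a few counts of members. The highest count in any of the 6 libraries was 25 for Csf3r, 15 for Mpo, 11 for S100a9, 8 for S100a8, 8 for Ngp, 7 for Ltf and 6 for Fpr1, each above the 3 counts that a count of 0 allows. No control library without neutrophils was at hand to set these against.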

How the results depend on the processing

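Of 937 values of single members and Socs3 under alternatives, 823 kept direction and side of the threshold, 39 lost the call, 19 gained it and 56 changed sign. The cause of a change was not tested unless stated.

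Members called between genotypes in isolates were 1 with DESeq2, 1 with limma-voom, 1 at a mean of at least 5 CPM, where Fpr1 and Camp drop out, and 4 in the 10-library fit, which called 1495 genes against 784. For the genotype by isolate term they were 3 with DESeq2 and 0 with limma-voom (600 genes called), library totals or no filter. DESeq2 called 1 member in day 7 lung (565 genes against 300), 1 in day 56 lung (175 genes against 2) and 1 between days in WT. In day 56 lung limma-voom called 4 genes and no filter 7, and DESeq2 called 47 for genotype by day. The r of Socs3 with the members' mean was 0.13 over 12 lung libraries, -0.81 in day 7 alone and 0.55 in day 56 alone.

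Same-numbered libraries correlated in their deviations at 0.06 to 0.26 in day 7 lung, at -0.16 to -0.03 in day 56 lung and at 0 in the isolates. With 2 or 3 libraries per group, these r cannot show whether the numbers pair libraries. The main fits did not pair them. With the replicate block 543 genes were called in day 7 lung, against 300 without it, 0 in day 56 lung and 1 for genotype by day. For genotype by isolate it called 1192 genes, against 949, and 0 members.

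Leaving out 1 library, the calls ranged from 76 to 970 genes and 1 to 2 members in isolates, 341 to 1113 and 0 to 2 for genotype by isolate, 94 to 372 and 0 to 1 in day 7 lung, 1 to 1268 and 0 to 1 in day 56 lung, 1235 to 3656 and 0 to 1 between days in WT, 704 to 1008 and 0 between days in IL6KO, 0 to 597 and 0 for genotype by day, 11304 to 11744 and 5 to 6 for isolate against lung in WT, and 11084 to 11604 and 4 to 5 in IL6KO. Without day 56 WT library 3 the calls were 1268 in day 56 lung, 597 for genotype by day and 3656 between days in WT. In isolates they were 76 without WT isolate 1 and 115 without WT isolate 2. In day 7 lung each library but IL6KO 3 lowered them when left out: WT 1 to 195, WT 2 to 115, WT 3 to 154, IL6KO 1 to 97 and IL6KO 2 to 94. For genotype by isolate they were 341 without WT isolate 1, 528 without IL6KO isolate 2, 586 without WT lung 2 and 514 without IL6KO lung 2. Between days they were 1235, 1308 and 1324 in WT without day 7 WT 2, day 7 WT 3 or day 56 WT 1, and 706 and 704 in IL6KO without day 7 IL6KO 1 or 2.

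Sign changes touched only values that were not called. Ngp turned to 0.14 (limma-voom) and 0.01 (replicate block) in day 7 lung and to 0.29 and 0.19 in day 56 lung. Between days in WT, Mpo turned to -0.15 with limma-voom and S100a9 to 0 with DESeq2 and with the replicate block. Leaving out 1 library, Camp ranged from -0.45 to 0.52 in isolates, from -0.33 to 0.41 in lung of day 7, -0.27 to 0.2 at day 56, from -0.5 to 0.19 between days in WT, from -0.5 to 0.06 in IL6KO, from -0.51 to 0.22 for genotype by day and from -0.59 to 0.37 for genotype by isolate. Ngp ranged from -0.37 to 0.18 in lung of day 7, -0.45 to 0.83 at day 56, from -3.32 to 0.49 for isolate against lung in WT, from -0.45 to 0.89 for genotype by day and from -3.98 to 1.03 for genotype by isolate. Mpo ranged from -0.47 to 0.8 between days in WT, from -0.21 to 1.1 in IL6KO and from -0.45 to 0.86 for genotype by day. Lcn2 ranged from -0.34 to 0.24 in day 56 lung and from -0.34 to 0.23 between days in IL6KO. S100a8 and S100a9 ranged from -0.58 to 0.14 and from -0.4 to 0.16 in day 56 lung, and from -0.39 to 0.38 and from -0.36 to 0.26 between days in WT.

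Depth limits Fpr1, Ngp, Mpo, Ltf, Elane and Camp, which had at most 53 counts in any rat library, and isolates had 2 libraries per genotype.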

Other observations

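Genes of natural killer cells, the lymphocytes that kill through perforin and granzymes, also differed between the genotypes in day 7 lung. Of 8 tested, 6 were higher in IL6KO and 0 lower, where 0.933% of all genes were called higher (edgeR). Gzma, a granzyme, was higher by 1.72 ± 0.179 (SE, adjusted p = 0.00228), Prf1 (perforin) by 1.38, Ncr1 (an activating receptor) by 1.09 and Tbx21 (a transcription factor) by 1.06. Of 8 mast cell, eosinophil and basophil genes, 2 were lower, Cpa3 (-1.67) and Tpsb2 (-1.5), both proteases of mast cells. Of 10 cycling genes, 6 were lower, where 1.16% of all genes were called lower, with Ccnb1 at -0.76. Of 10 B cell, 9 endothelial, 8 erythroid and 8 platelet genes 0 were called. At day 56 none of these lists had a called gene, in a contrast that called 0.0138% of all genes.

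Between day 7 and day 56, 6.72% of all genes were called higher and 8.05% lower in WT lung, and 3.4% and 4.92% in IL6KO lung. In WT all 8 natural killer genes tested were higher, with Gzmb at 3.11 ± 0.369 (adjusted p = 0.000117, edgeR), and in IL6KO 1 of 8, Gzmb at 2.18. Cycling genes were lower in both genotypes, 9 of 10, with Top2a at -2.16 in WT and -1.69 in IL6KO. Neutrophil genes other than the members were called higher in 1 of 29 in WT, Gfi1 (1.4), and in 3 of 29 in IL6KO, Hdc (0.95), Adam8 (0.69) and Cd177 (0.64).

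The mouse splenic CD4 fractions, from mice carrying Ai14 and SM22alpha-Cre, give Socs3 beside near-absent neutrophil transcripts. Socs3 was at 168, 176 and 119 CPM in the tdTomato-positive and at 169, 232 and 124 CPM in the tdTomato-negative fractions, where S100a9 was at most 1.01 CPM, S100a8 at most 0.642 CPM, Csf3r at most 2.08 CPM and Lcn2 at 0 in all 6. The summed 10 members made 0.188 to 5.78 CPM in these fractions, against 384 to 1140 CPM in the rat lung isolates. Species, tissue, sorting and treatment all differ between the 2 kinds of isolate, and they cannot be told apart.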
